A study of Rattus norvegicus with 6 samples.

Results

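Unnamed assembled loci are rows of the expression table that the assembler built from reads and that carry no gene symbol. A locus was included when its mean level over the 6 libraries was at least 0.5 FPKM (fragments per kilobase of assembled length, scaled to the mapped reads of the library), and 72 such rows in a single stretch of chromosome 16 were left out. This gave 6519 loci out of 43350 rows. A further 258 unnamed rows lay under the limit. The 5 loci just inside it had mean levels of 0.502 to 0.504 FPKM and the 5 rows just outside it 0.497 to 0.499 FPKM. All 6519 loci entered the test between groups, together with the 72 rows left out and 20072 rows that carry a symbol, so that 26663 rows were tested.

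The rows were measured in the ipsilateral lumbar dorsal root ganglia (DRG) of male Sprague-Dawley rats taken 11 days after surgery. In the chronic constriction injury (CCI) group (n = 3) the left sciatic nerve was loosely ligated, which is a widely used model of neuropathic pain. In the sham group (n = 3) the nerve was exposed and not ligated, although the labels list no treatment for these rats. Neither the labels nor the columns give the age of a single rat, the labels mention a pooled sample where the methods describe 1 rat per library, and all rats shared strain, sex and day.

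A transcript assembler joins overlapping reads into loci without knowing which genes exist, so it also finds RNA that the gene annotation lacks. Such RNA is known to come from long non-coding RNA genes, from antisense transcription inside genes, from introns that remain in total RNA, from gene ends that reach past their annotated limits, and from promoters and enhancers that are transcribed in both directions. DRG hold the cell bodies of sensory neurons with satellite glia and Schwann cells, and after a nerve injury the neurons switch on a regeneration programme that includes the transcription factor Jun while macrophages accumulate.

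The genome build of the table was not used here, so no locus sequence is printed. RefSeq sequences of neighbouring genes in the GRCr8 build are given instead, for the places on which the results turn. The promoters (250 bases before to 50 after the gene start) are shown for Sel1l3, which has a raised unnamed locus at its head, and for 2 of the 4 long non-coding RNA genes that RefSeq places between Xcl1 and Tbx19, where the largest group of raised loci lay. Whether those non-coding genes correspond to the loci was not tested. Capitals mark the cAMP response element TGACGTCA.
Sel1l3 (chr14:61988100-61988399, plus strand): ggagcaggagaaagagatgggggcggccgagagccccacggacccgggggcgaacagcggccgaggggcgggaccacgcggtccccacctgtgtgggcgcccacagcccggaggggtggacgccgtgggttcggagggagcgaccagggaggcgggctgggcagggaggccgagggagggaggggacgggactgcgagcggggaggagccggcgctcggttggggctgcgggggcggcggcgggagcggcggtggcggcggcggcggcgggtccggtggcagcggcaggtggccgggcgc
LOC120096302 (chr13:79865094-79865393, minus strand): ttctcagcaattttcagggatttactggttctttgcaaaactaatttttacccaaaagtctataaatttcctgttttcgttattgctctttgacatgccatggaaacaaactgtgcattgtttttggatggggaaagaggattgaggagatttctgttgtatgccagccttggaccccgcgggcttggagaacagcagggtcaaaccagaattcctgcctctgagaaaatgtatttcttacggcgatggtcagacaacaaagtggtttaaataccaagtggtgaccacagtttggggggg
LOC134481585 (chr13:79930300-79930599, minus strand): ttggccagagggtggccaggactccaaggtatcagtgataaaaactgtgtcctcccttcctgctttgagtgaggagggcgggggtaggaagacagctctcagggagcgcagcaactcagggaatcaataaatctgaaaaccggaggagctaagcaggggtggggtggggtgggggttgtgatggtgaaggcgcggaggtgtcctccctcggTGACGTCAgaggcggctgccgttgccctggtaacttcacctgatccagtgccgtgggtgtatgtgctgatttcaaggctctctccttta

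Of 33469 RefSeq promoters of this length, 1.83% held TGACGTCA, 4.34% its variant TGACATCA and 7.33% the AP-1 motif TGANTCA, each searched on both strands. The promoter of LOC134481585 held TGACGTCA 1 time and is shown for that match. No other match to these motifs was found in the 3 promoters printed, in the other listed starts of LOC120096302, or in the promoters of LOC134481586 and LOC120096303. The Sel1l3 promoter had a GC content of 80.0%, against a median of 51.7% over all promoters. A match or its absence describes only these letters.

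Some unnamed loci lie inside long rows that carry the symbol of a microRNA, a short RNA that represses messages pairing with its seed. The mature sequences of the microRNAs that name such rows are shown where a locus was called or where several loci shared a row, with the seed (bases 2 to 8) in capitals.
miR-34a-5p: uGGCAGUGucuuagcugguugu
miR-34a-3p: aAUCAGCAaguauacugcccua
miR-205: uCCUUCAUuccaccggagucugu
miR-344a-5p: uCAGGCUCcuggcuagauu
miR-138-5p: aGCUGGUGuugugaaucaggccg
miR-344g: aGUCAGGCuccuggcaggaguc
miR-568: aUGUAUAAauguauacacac
miR-99a-3p: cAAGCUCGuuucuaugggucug
miR-297: aUGUAUGUgugcauguaugcaug
let-7b-5p: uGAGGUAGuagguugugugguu
let-7c-5p: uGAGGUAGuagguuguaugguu
The let-7 sequences share the seed GAGGUAG, and the other sequences each have a seed of their own. The libraries analysed here do not measure mature microRNAs, and the values given for these rows are those of long RNA.

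Most unnamed loci were short, unspliced and without an assigned strand. A strand is assigned where reads or splice sites give it, and 4121 of the 6519 loci (63.2%) had none. These were single blocks with a median span of 491 bp and a median level of 1.29 FPKM. Loci in a single block with a strand numbered 1147, with a median span of 3824 bp and 2.04 FPKM. The remaining 1251 loci were spliced, meaning that their assembled length, worked out from counts and FPKM, was under 98% of their span. Their median span was 8592 bp, their median assembled length 1954 bp and their median level 1.87 FPKM.

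The loci were less abundant and more variable than rows with a symbol. Over all 6519 the median level was 1.46 FPKM, against 3.50 FPKM for the 20072 tested rows with a symbol. A level above 10 FPKM was found in 110 loci (1.69%) and in 4477 rows with a symbol (22.3%). The median coefficient of variation between libraries of a group was 24.8% in the CCI group and 23.5% in the sham group, against 11.1% and 10.3% for rows with a symbol. The 2 sets were not matched for level or assembled length (medians of 788 and 2486 bp). The part of these in the spread was not tested. Unnamed loci took 5.33% to 5.68% of the counts of a library, with overlapping ranges in both groups.

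The loci of highest FPKM were short. The highest was chr14:46517585-46518369 on the plus strand, 785 bp long, at a mean of 328 FPKM, with 25672, 22276 and 19966 counts in CCI 1 to 3 and 19271, 23400 and 27045 in sham 1 to 3. The next were chr10:49699096-49699433 at 219 FPKM, chr17:60734841-60735194 at 209, chr6:30629167-30630247 at 191 and chr5:138042656-138043326 at 175 FPKM. The chromosome 6 locus overlaps a row named 5_8S_rRNA, a component of the ribosome. None of these 5 was called different between groups, and the groups overlapped in the first of them.

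The loci with most reads were long. The locus chr11:12105184-12247858 on the minus strand spans 142675 bp and had 51439, 54385 and 49068 counts in the CCI group against 68586, 22326 and 61373 in the sham group. Sham 2 held the lowest of these values and sham 1 the highest. The others of the 5 with the highest CPM (read counts scaled to the size of the library) were chr2:41559515-41565848 inside Rab3c (a vesicle-trafficking GTPase of neurons), chr5:155885992-155914732 at 3 bp from Ldlrad2, chr11:12519909-12580898 and chr3:111396964-111410578 at 5958 bp from Oip5. None of the 5 was called.

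The longest loci were spliced over more than 500 kb. A locus of 551392 bp on the minus strand (chr1:121689069-122240460) and a locus of 513151 bp on the plus strand (chr1:121721420-122234570) both lie within the row named Mir344a-2 on chromosome 1, and the locus chr16:85528122-86053581 spans 525460 bp. Their assembled lengths were 1345, 13089 and 10056 bp, so that most of each span is intron. In the chromosome 16 locus the counts were 3385, 3534 and 3516 in CCI and 3640, 3905 and 3988 in sham, which overlap once scaled to library size, and it was not called.

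Unnamed loci were found on every chromosome of the table, from 14 on Y to 704 on chromosome 1. Set against the tested rows with a symbol, they were densest on Y (14 against 14), on chromosome 15 (345 loci, or 60.0 per 100 rows with a symbol) and on chromosome 11 (278, or 51.2 per 100). Chromosome 10 (19.3 per 100), chromosome 20 (19.7 per 100) and chromosome 18 (21.5 per 100) had the fewest. The median span ran from 360.5 bp on Y and 501 bp on X to 1779 bp on chromosome 11.

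Distance was counted in base pairs to the nearest row with a symbol, of any level and on either strand, with 0 for an overlap. The median was 11729 bp. A named row was overlapped by 1178 loci (18.1%), a further 1940 (29.8%) lay within 10 kb, 1693 (26.0%) between 10 and 50 kb, and 1708 (26.2%) beyond 50 kb. Among the 5341 loci that overlapped none, the median was 21551 bp and the quartiles 5201 and 69318 bp. Single blocks without strand lay farther out, at a median of 20204 bp, than spliced loci at 1105 bp and stranded single blocks at 244 bp.

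**Figure D1:**
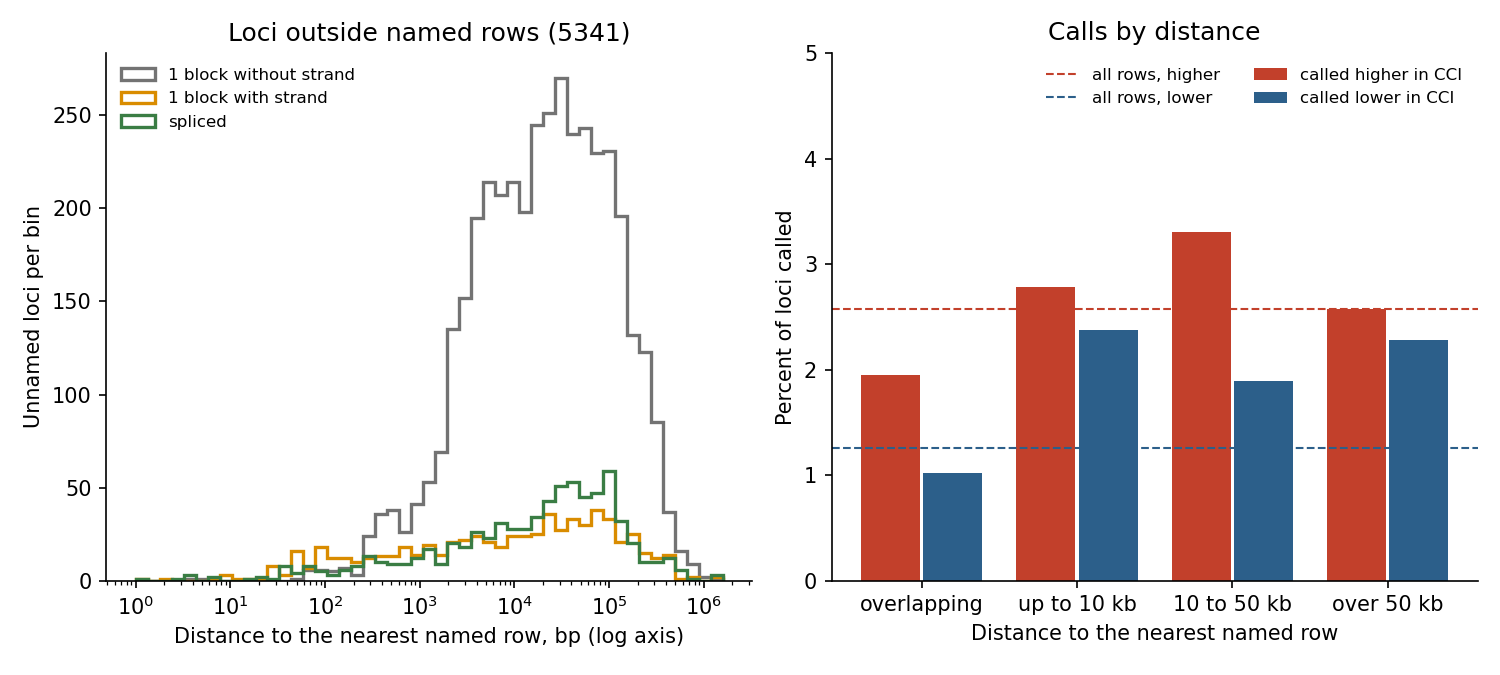
Left, number of unnamed loci by distance in bp to the nearest row with a symbol (log axis) for 3 kinds of locus, without the 1178 that overlap such a row. Right, percent of loci called higher (red) or lower (blue) in CCI by distance, with dashed lines at the share of all 26663 tested rows; overlapping loci had the lowest bars, 1.95% and 1.02%.

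The farthest loci lay over 1 Mb from any symbol. The locus chr1:180645684-180646779 was 1425493 bp from the nearest symbol, Ythdc2, with counts of 696, 362 and 541 in CCI and 525, 448 and 452 in sham. On the opposite strand across it lay chr1:180600976-180704015, with 102, 386 and 80 in CCI and 926, 75 and 47 in sham. The locus chr13:11389829-11392333 was 1269924 bp from its nearest symbol. In each of these the groups overlapped. In all, 41 loci were more than 500 kb away.

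Loci that overlapped a named row mostly had a strand, and mostly the opposite one. Of the 1178, 682 lay opposite to the row, 318 on its strand and 178 had no strand. Among loci within 1 kb of a stranded row, 129 of those without strand lay before the start of the row and 40 beyond its end. Between 1 and 5 kb the numbers were 298 before and 310 beyond. Loci on the opposite strand within 1 kb were 74 before the start, the head-to-head arrangement of a shared promoter, and 69 beyond the end.

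The first comparison asked which unnamed loci differed between the CCI and sham groups. By edgeR's quasi-likelihood test, at a p under 0.05 before adjustment and a log2 difference of 0.58 or more in either direction, 177 loci (2.72%) were higher and 129 (1.98%) lower in the CCI group. Of all 26663 rows tested 2.57% were higher and 1.26% lower, and of rows with a symbol 2.29% and 1.03%. The share of raised loci was thus near that of all rows. After Benjamini-Hochberg adjustment over all rows, 4 loci rose (0.0638% of all rows did) and 0 fell (0.0300% of all rows). At an unadjusted p under 0.05 in edgeR, whatever the fold, 241 of the 6519 loci were higher and 277 lower. Of all 26663 rows tested, 1484 were higher and 1382 lower in that way. DESeq2 found 55 raised and 54 lowered loci at an adjusted p under 0.05. The 4 raised loci became 7, 0 and 2 without CCI 1, CCI 2 and sham 1, and the 0 lowered loci became 6 and 2 without CCI 1 and sham 2. Unadjusted calls are referred to below as called, and each carries the error of a test repeated over many rows.

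The median log2 fold change of the unnamed loci was 0.02, with quartiles of -0.22 and 0.28, against 0.00, -0.12 and 0.15 for rows with a symbol. The calls came from every kind of locus. Single blocks without strand gave 123 higher (2.98%) and 84 lower (2.04%). Stranded single blocks gave 24 (2.09%) and 21 (1.83%), and spliced loci 30 (2.40%) and 24 (1.92%). Overlapping loci gave 23 (1.95%) and 12 (1.02%), and those within 10 kb 54 (2.78%) and 46 (2.37%). Loci between 10 and 50 kb gave 56 (3.31%) and 32 (1.89%), and those farther out 44 (2.58%) and 39 (2.28%). Of all tested rows 2.57% were higher and 1.26% lower. In bulk ganglia, fewer cells of a type and less RNA per cell cannot be told apart.

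**Figure D2:**
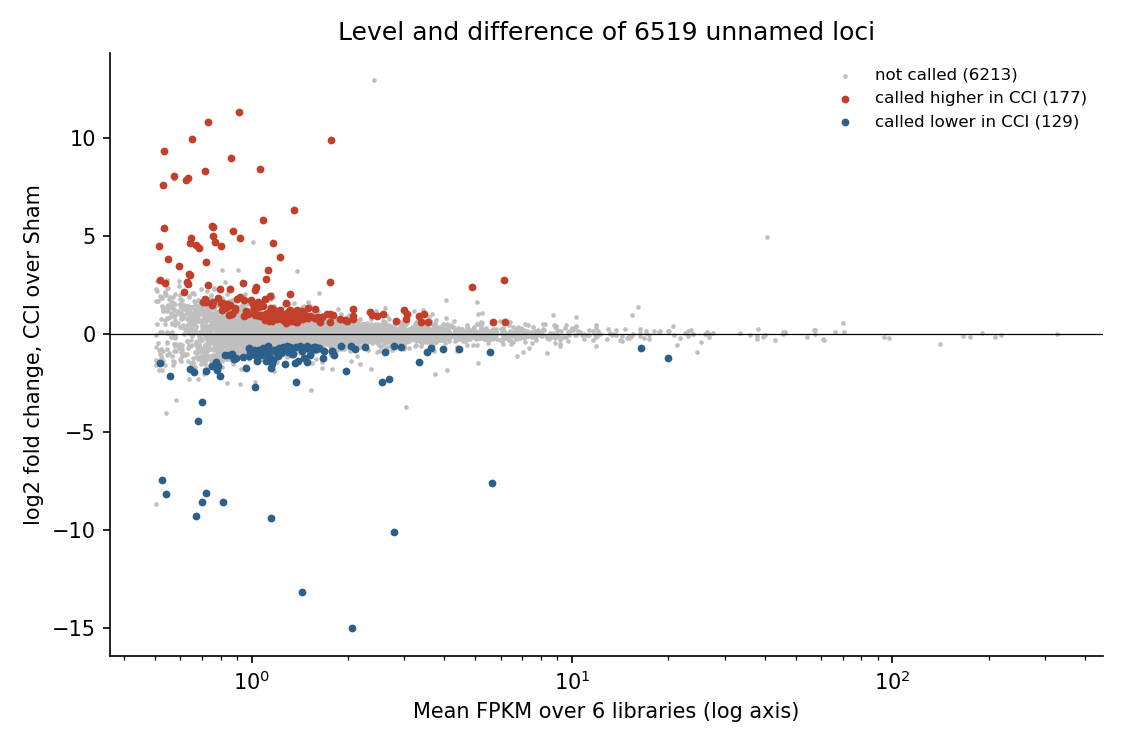
Each point is an unnamed locus, by its mean FPKM over 6 libraries (log axis) and its log2 fold change, CCI over sham; red points were called higher (177), blue lower (129) and grey points not called. The differences beyond 5 on the log2 scale were mostly at mean levels under 2 FPKM.

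Chromosome 13 held the largest share of called loci, 20 of 239 higher (8.37%) and 11 lower (4.60%), and 12 of the 20 lay in 1 stretch. Those 12, described below, are not separate observations. Of all tested rows 2.57% were higher and 1.26% lower. Chromosome 1 gave 30 higher (4.26%) and 9 lower (1.28%) of 704, and chromosome 5 gave 16 (3.97%) and 10 (2.48%) of 403. Chromosome 3 gave 7 higher (1.93%) and 15 lower (4.13%) of 363, and chromosome 17 gave 1 (0.351%) and 6 (2.11%) of 285. No locus was called on Y.

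The strongest group of raised loci lay between Xcl1, which encodes the lymphocyte chemokine lymphotactin, and Tbx19, a T-box transcription factor gene, on chromosome 13. All 12 unnamed loci of this interval of 200399 bp were called higher in the CCI group, where 2.57% of all tested rows were. The interval was picked out after its values were seen. It was the only one of 2786 intervals between named rows that hold loci to contain 3 or more raised loci. The log2 fold changes ran from 4.40 to 8.96 with a median of 4.95, a 30.9-fold difference. In all 12 every CCI library lay above every sham library, a separation found in 8.63% of all tested rows and in 418 of the 6519 loci (6.41%). With 0 to 130 counts per sham library, these loci reached the limit of 0.5 FPKM only through the CCI libraries. A locus low in both groups would not have been included, so the limit in part fixed both the 12 calls and this separation.

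The locus chr13:83284125-83298491, 14367 bp on the minus strand, had 4033, 1541 and 1255 counts in CCI 1 to 3 and 44, 52 and 31 in sham 1 to 3. That is 28.4 ± 18.5 CPM against 0.511 ± 0.141 (SD, n = 3 each). Its log2 fold change was 5.80 (SE 0.55), with an adjusted p of 0.0381 by edgeR's quasi-likelihood test and Benjamini-Hochberg adjustment. The CCI values were far above the sham values, and CCI 1 was more than the other CCI libraries together.

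The locus chr13:83259922-83271021, 11100 bp without strand, showed the same order. Its counts were 2559, 980 and 778 in CCI and 38, 23 and 42 in sham, or 18.0 ± 11.8 against 0.411 ± 0.111 CPM. The log2 fold change was 5.44 (SE 0.55) with a Benjamini-Hochberg adjusted p of 0.0445 in edgeR. The neighbouring chr13:83298559-83310490 had 4174, 1549 and 1297 counts in CCI and 95, 63 and 130 in sham, the highest sham values of the interval. Its adjusted p in edgeR was 0.0712.

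The small loci of the interval were near the detection limit in sham. The locus chr13:83275961-83276361 had 55, 91 and 37 counts in CCI and 0, 0 and 0 in sham, so that it was at least 21.2-fold higher (against a floor of 3 counts per library). The locus chr13:83312735-83313413 had 258, 86 and 134 in CCI and 4, 0 and 2 in sham. At the far end, 25465 bp from Tbx19, chr13:83376960-83377799 had 140, 68 and 114 in CCI and 0, 7 and 0 in sham. The fitted log2 fold change was 6.30 at chr13:83312735-83313413 and 7.17 without sham 1, and 5.49 at chr13:83376960-83377799 and 9.79 without sham 2.

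The locus closest to Xcl1, chr13:83204267-83220126, begins 1403 bp from that row and is spliced. It had 582, 158 and 124 counts in CCI and 12, 4 and 12 in sham, a log2 fold change of 4.99 (SE 0.78). A spliced locus of 73242 bp, chr13:83240492-83313733, overlaps 8 of the other loci, and its counts were 1346, 342 and 392 in CCI and 36, 22 and 14 in sham. The 12 are therefore not 12 separate observations. Of the 12, 7 lay on the minus strand and 5 had no strand, and adjusted p-values in edgeR ran from 0.0381 to 0.247.

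CCI 1 held the highest count in 11 of the 12, up to 3.68 times the next library. All 12 were still called without CCI 1, at a median log2 fold change of 4.01 and adjusted p-values in edgeR from 0.00554 to 0.459. The changes given above as 5.80, 5.44 and 4.99 were then 5.12, 4.76 and 3.99. CCI 1 was also the CCI library with the highest summed macrophage markers, 349.7 CPM against 315.1 and 239.6 in CCI 2 and 3 and 137 to 171 in sham, and with the highest summed nerve injury genes. The part of either in the result was not tested.

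Of the rows at the ends of the interval, Xcl1 had counts in CCI alone and Tbx19 overlapped between groups. The Xcl1 row, on the minus strand, had 62, 54 and 17 counts in CCI and 0, 0 and 0 in sham, and at a mean of 0.495 FPKM it lay under the limit for testing. The longest Tbx19 row, also on the minus strand, had 130, 113 and 128 in CCI and 130, 85 and 118 in sham, a log2 fold change of 0.23 (SE 0.22), and was not called. RefSeq lists 4 long non-coding RNA genes between this pair of genes in GRCr8.

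**Figure D3:**
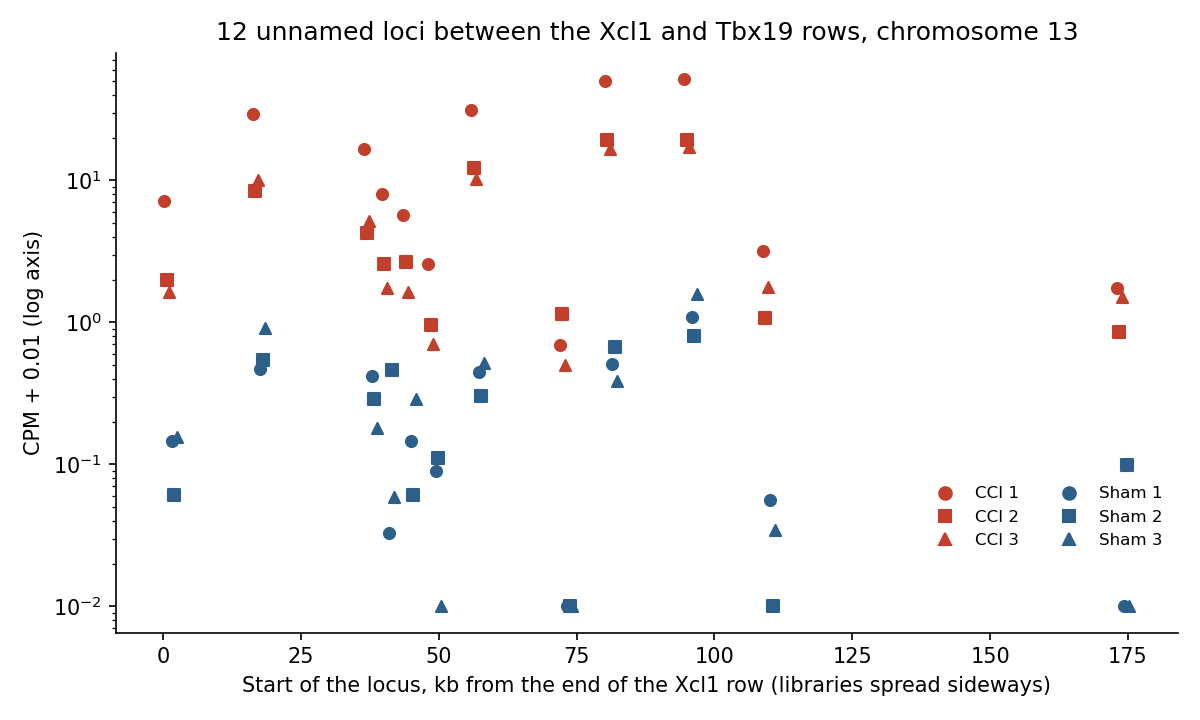
CPM + 0.01 (log axis) of the 12 unnamed loci between the Xcl1 and Tbx19 rows in each library, by the start of the locus in kb from the end of the Xcl1 row; red marks CCI, blue sham. Red symbols lie above blue ones at every locus, and CCI 1 (red circles) is highest in 11 of 12.

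The other 2 loci that passed the adjusted threshold each had counts in every CCI library and none in any sham library. The locus chr1:38517107-38519070, 1964 bp without strand and 6807 bp from LOC102551340, had 307, 345 and 282 counts in CCI and 0, 0 and 0 in sham. It was at least 109-fold higher, with an adjusted p of 0.00919 in edgeR. The locus chr17:14121552-14123300, 1749 bp without strand and 15626 bp from AABR07027088, had 199, 245 and 220 against 0, 0 and 0. It was at least 77.4-fold higher, with an adjusted p of 0.0151. Neither neighbouring row was called. Both loci stayed called whichever library was left out. Both reached the limit of 0.5 FPKM through the CCI libraries alone. They belong to the loci, described below, that were high in some libraries and at or near 0 in the rest.

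The remaining loci among the 10 largest increases with separate groups and over 30 counts in each CCI library were a pair outside chromosome 13. At 2985 bp from Ccr6, a chemokine receptor gene of lymphocytes, chr1:53090459-53093051 had 463, 117 and 135 counts in CCI and 3, 12 and 2 in sham, a log2 fold change of 5.40 (SE 0.89). The locus chr16:18594156-18596341 had 320, 332 and 320 in CCI and 19, 0 and 8 in sham, a log2 fold change of 5.25 (SE 0.86). The CCI values of the last were alike, while CCI 1 stood out at the first. Leaving out 1 library gave 4.51 (without CCI 1) to 6.60 (without sham 2) at the first and 4.69 (without sham 2) to 6.34 (without sham 1) at the second. Their adjusted p-values in edgeR were 0.112 and 0.109. Both loci, at means of 0.534 and 0.875 FPKM, reached the limit of 0.5 FPKM only through the CCI libraries. The limit thus in part fixed these calls. The Ccr6 row was not tested.

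The largest decreases were scattered and small in count. At 39057 bp from Lrrn1, which encodes a leucine-rich repeat membrane protein of neurons, chr4:139724623-139725261 had 0, 0 and 0 counts in CCI and 98, 44 and 98 in sham, and was at least 25.2-fold lower. The locus chr3:167632782-167633153 had 0, 0 and 0 against 56, 55 and 34, at least 15.3-fold lower. The spliced chr10:76546535-76547110 had 5, 0 and 0 against 398, 343 and 347, or 0.0205 ± 0.0356 against 4.36 ± 0.168 CPM, and its fitted log2 fold change of -7.60 was -11.47 without CCI 1. In these 3 the CCI group was at or near the floor, and the adjusted p-values in edgeR were 0.0865, 0.0966 and 0.0605. All 3 reached the limit of 0.5 FPKM through the sham libraries alone, so the limit in part fixed their calls. The loci on chromosomes 4 and 3 belong to the loci, described below, that were high in some libraries and at or near 0 in the rest.

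Smaller decreases followed, with log2 fold changes from -2.42 to -1.52 over 7 loci. The largest in level, chr2:97695521-97697807, had 130, 198 and 153 counts in CCI and 770, 484 and 1461 in sham. A spliced locus of the minus strand, chr2:30029064-30042527, had 50, 83 and 67 in CCI and 189, 197 and 229 in sham. Sham 3 was high at the first, while the sham values of the second were alike. The others were chr3:52165575-52167053 near Galnt3 (a mucin-type glycosyltransferase, with a log2 fold change of -1.95, and -1.20 without sham 3), chr6:92854908-92855132 near Tmx1 (a thioredoxin-related membrane protein), chr13:39101557-39101965 at 323630 bp from Dpp10 (an auxiliary subunit of A-type potassium channels), chr17:58565479-58565869 and chr10:69041844-69042558. The calls at chr13:39101557-39101965 and chr17:58565479-58565869 were lost without CCI 2, CCI 3 or sham 2 (log2 fold changes of -1.64, -1.64 and -1.01) and without CCI 1, CCI 2, sham 1 or sham 2 (-1.33, -1.45, -1.68 and -1.52), in that order. The locus near Galnt3, at a mean of 0.661 FPKM, reached the limit of 0.5 FPKM only through the sham libraries.

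Lowered loci were grouped in 2 intervals with 3 or more called, both picked out after their values were seen. The interval with most loci of all, 43 on chromosome 13 between AABR07020786 and LOC102554127, had 5 called lower and 0 higher, where 1.26% of all tested rows were lower. Its median log2 fold change was -0.44, and 38 of the 43 were below 0, as were 47.8% of all unnamed loci. The locus chr13:41146112-41164117 had 1574, 1747 and 1997 counts in CCI and 2973, 2955 and 3167 in sham, a log2 fold change of -0.70 (SE 0.12). Its groups did not overlap, as in 26 of the 43, and over all tested rows 8.70% lay entirely below sham.

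The same interval held chr13:40719231-41174095, a spliced locus of 454865 bp with 60, 73 and 79 counts in CCI and 129, 144 and 135 in sham. Its log2 fold change was -0.87 (SE 0.23). This call and that of chr13:41146112-41164117 held whichever library was left out, while each of the other 3 was lost in at least 1 such fit. On X, all 9 loci between a U6 row and Frmpd4, a gene of the postsynaptic scaffold, had log2 fold changes below 0, with a median of -0.65. Of all unnamed loci 47.8% were below 0. Among the 9, 3 were called lower, where 1.26% of all tested rows were. The spliced X:27231634-27464279 overlaps 3 of the others, so the 9 are not separate observations. The locus X:27286227-27286994 had 54, 60 and 64 counts in CCI and 94, 122 and 108 in sham, and its call was lost without sham 2 (-0.66). The other called loci of this interval, X:27421373-27422344 and X:27476546-27477910, each lost their call without CCI 1, CCI 2, sham 1 or sham 2. None of these calls passed the adjusted threshold, and whether loci of an interval belong to a single transcript was not tested. Summed sensory neuron markers, all 15 of them tested, were 11609 to 13161 CPM in CCI and 14629 to 15949 in sham, and their part in the lower values was not tested.

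A further question was whether called loci lie beside named rows that moved in the same way. Of 135 called loci within 10 kb of a named row or overlapping it, 111 had a neighbour that was itself tested. In 14 of the 111 (12.6%) the neighbour was called in the same direction, in 0 in the opposite one, and in 97 it was not called. Of all rows with a symbol 2.29% were called higher and 1.03% lower. Across the 2709 loci with a tested neighbour within 10 kb, the log2 fold changes of locus and neighbour had a Pearson correlation of 0.10, over points that share libraries and some reads.

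Raised loci with a raised neighbour included chr5:31812874-31818611 at 2390 bp from Mmp16, a membrane-bound matrix metalloproteinase. It had 1936, 1230 and 932 counts in CCI and 844, 706 and 696 in sham, and its log2 fold change was 0.93 (SE 0.24) against 1.24 at the Mmp16 row. The locus chr6:128632708-128639154 overlaps Syne3, which encodes a nuclear envelope protein, and had 1461, 1629 and 1799 against 763, 835 and 540. At chr2:114389363-114392447, 2075 bp from the row of Tnik, a kinase of the Wnt and actin pathways, the counts were 547, 497 and 447 against 282, 226 and 295. In all 3 the groups did not overlap, and none passed the adjusted threshold.

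Near Spock2, a proteoglycan of the extracellular matrix, chr20:29680175-29682962 had 190, 258 and 391 counts in CCI and 161, 178 and 103 in sham, and this call was lost without CCI 3, sham 1 or sham 3 (log2 fold changes of 0.64, 1.03 and 0.80). The locus chr16:88344447-88345071 had 720, 892 and 155 in CCI and 84, 93 and 89 in sham, with CCI 3 well below the other CCI libraries. The locus overlapping Mir205 and the one beside Jun complete the raised group and are described below.

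Lowered loci with a lowered neighbour included 2 beside receptor genes. At 2825 bp from Adra1a, the alpha-1A adrenergic receptor, chr15:43395276-43398247 had 108, 156 and 178 counts in CCI and 409, 441 and 377 in sham. Its log2 fold change was -1.40 (SE 0.24), and that of the Adra1a row -0.92. At 1398 bp from Oprd1, the delta opioid receptor, chr5:150280928-150283573 had 100, 168 and 201 in CCI and 290, 320 and 397 in sham, with -1.03 (SE 0.31) at the locus and -0.68 at the Oprd1 row. Neither locus overlapped between groups.

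At 2203 bp from Arhgap8, chr7:125727889-125729072 had 71, 52 and 74 counts in CCI and 191, 158 and 192 in sham. Its log2 fold change was -1.38 (SE 0.23) and that of the Arhgap8 row -1.08. The groups were far apart at this locus, and its call held in every fit without a library.

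Other lowered pairs rested on single libraries. A pair of minus-strand loci beside AABR07052585 on chromosome 3 followed sham 1. The locus chr3:63606878-63678075 had 4054, 2508 and 2298 counts in CCI and 38839, 3040 and 5502 in sham, and without sham 1 its log2 fold change was -0.50, where the full data gave -2.30. The locus chr3:63678476-63723806 had 267, 202 and 160 against 3120, 214 and 353, and -0.40 without sham 1 where the full data gave -2.43. Both calls were also lost without any of the CCI libraries. Sham 1 also held the highest summed skeletal muscle markers, 433 CPM against 9.28 to 55.2 in the other libraries, over the 9 of 12 markers that were tested, and their part in this result was not tested.

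The locus chr11:12279508-12290545, which overlaps AABR07033236, had 0, 0 and 0 counts in CCI and 6555, 0 and 6291 in sham. It was called lower although sham 2 was at 0 like the CCI libraries. Only through sham 1 and sham 3 did it reach the limit of 0.5 FPKM. The overlapping chr3:173317372-173318431 had 70, 102 and 103 in CCI and 103, 257 and 232 in sham, and its call held only without sham 1, with log2 fold changes of -0.78 to -1.18 without any other library.

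Of the 74 head-to-head loci, 3 were called higher and 2 lower, where 2.57% and 1.26% of all tested rows were, and 1 of them, at Jun, had a neighbour called in the same way. Jun, a transcription factor of the injury response and a subunit of AP-1, was the only gene of the marker and injury lists with a called locus within 10 kb. The lists had 13 such loci in all, 11 near sensory neuron markers, of which 0 were called by edgeR at an unadjusted p under 0.05 with the fold limit, and 2 near nerve injury genes, of which 1 was called.

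The locus chr5:114014658-114031941 runs away from Jun on the plus strand from 381 bp before the Jun row. It had 3951, 3015 and 2748 counts in CCI and 2166, 2092 and 2083 in sham, or 40.7 ± 6.91 against 25.4 ± 0.875 CPM. Its log2 fold change was 0.68 (SE 0.12), with an adjusted p of 0.136 in edgeR. The Jun row had 13583, 10727 and 9049 in CCI and 5787, 5334 and 5619 in sham, a log2 fold change of 1.06 (SE 0.12). The groups did not overlap in either, and CCI 1 was highest in both. Without CCI 1 the change of the locus was 0.53, under the fold limit.

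At Sel1l3, which encodes a protein of the SEL1-like family, the unnamed locus rose and the gene row did not pass the fold limit. The locus chr14:60108941-60122625, 13685 bp in a single block on the minus strand and 544 bp from the Sel1l3 row, had 3503, 2413 and 1729 counts in CCI and 519, 634 and 762 in sham. That is 31.9 ± 10.4 against 7.71 ± 1.68 CPM, a log2 fold change of 2.05 (SE 0.27) with an adjusted p of 0.0789 in edgeR. The Sel1l3 row had 4150, 3379 and 2964 in CCI and 2677, 2468 and 2739 in sham, a log2 fold change of 0.48 (SE 0.11), and was not called. The difference between the changes was not tested. The call of the locus held in every fit without a library, with log2 fold changes of 1.77 to 2.24.

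**Figure D4:**
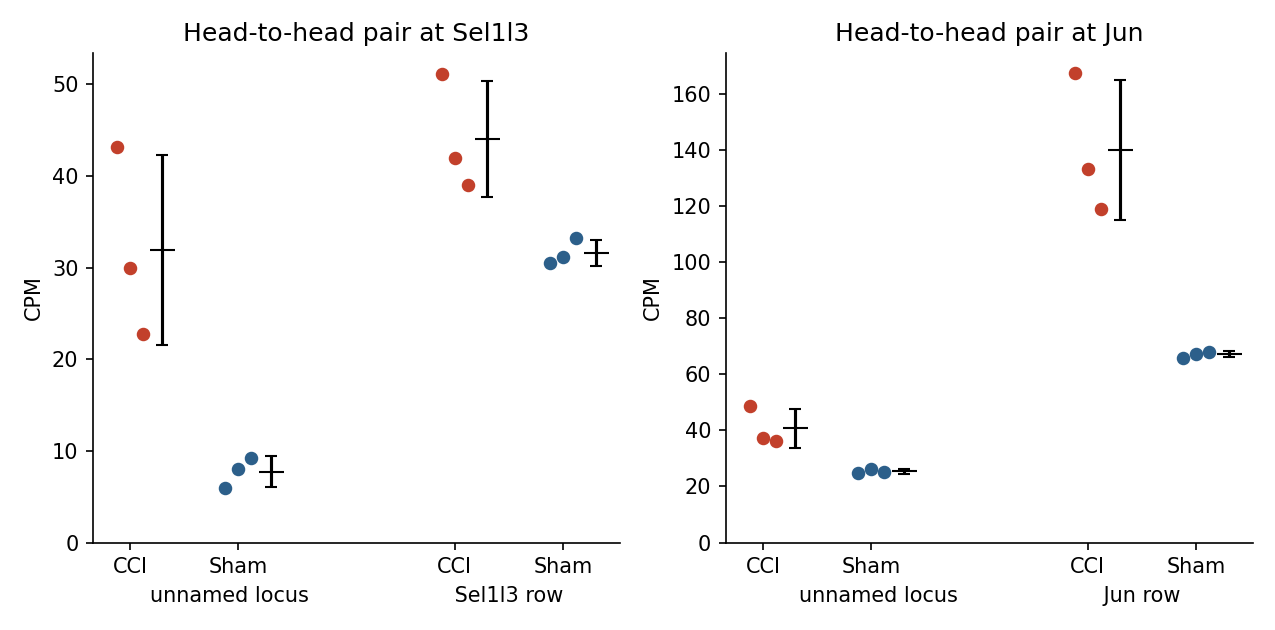
CPM of the unnamed locus and of the gene row at Sel1l3 (left) and Jun (right); points are libraries, red for CCI and blue for sham, and the bar beside each set is the mean with its SD (n = 3). At Sel1l3 the means were 31.9 and 7.71 CPM at the locus in CCI and sham.

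The other head-to-head calls were lost when single libraries were left out. At Uqcrc2, a core subunit of respiratory complex III, chr1:190525830-190555108 had 388, 249 and 368 counts in CCI and 571, 560 and 607 in sham, 69 bp from the gene row. At Abcc4, a transporter of cyclic nucleotides and other anions, chr15:103928037-103931486 had 62, 106 and 71 against 135, 137 and 144. Neither gene row was called, and the calls were lost without CCI 2 (-0.53) at the first and without CCI 1, CCI 3, sham 2 or sham 3 (-0.57 to -0.71) at the second. Beside AABR07066379, chr9:8281647-8282176 had 11, 103 and 39 against 6, 15 and 4, with CCI 2 far above the others. That call was lost without CCI 2, sham 1 or sham 3 (1.66, 2.42 and 2.31). At a mean of 0.631 FPKM, this locus reached the limit of 0.5 FPKM only through the CCI libraries.

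Rows named for microRNAs were overlapped by 57 loci, 25 of them on Mir344a-2, and of the 57, 1 was called higher and 1 lower, where 2.57% and 1.26% of all tested rows were. Of 19 microRNA names, 17 had a mature sequence in RefSeq. The locus chr5:167094594-167095883, a single block on the plus strand opposite the long Mir34a row, had 178, 182 and 234 counts in CCI and 386, 367 and 226 in sham. RefSeq places miR-34a on the plus strand, so the long row, on the minus strand, lies opposite to the microRNA. A short Mir34a row on the plus strand had 1, 3 and 0 counts in CCI and 1, 0 and 3 in sham, and was not tested. The log2 fold change of the locus was -0.64 (SE 0.26), and that of the long Mir34a row -0.43 (SE 0.15). CCI 3 and sham 3 overlapped, and the call was lost without CCI 1, CCI 2, sham 1 or sham 2 (log2 fold changes of -0.56, -0.57, -0.55 and -0.51).

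The locus chr13:112205465-112206344 lies in the Mir205 row and has no strand. It had 156, 22 and 38 counts in CCI and 26, 4 and 8 in sham, a log2 fold change of 2.58 (SE 0.96), while the Mir205 row had 1334, 283 and 413 in CCI and 59, 45 and 66 in sham, a log2 fold change of 3.63 (SE 0.62). That row lies on the plus strand, while RefSeq places miR-205 on the minus strand. A short Mir205 row on the minus strand had 5, 0 and 2 counts in CCI and 0, 0 and 0 in sham, and was not tested. CCI 1 was highest at the locus and at the long Mir205 row. At a mean of 0.539 FPKM, and 1.99 FPKM in CCI 1, the locus reached the limit of 0.5 FPKM only through the CCI libraries. Without CCI 1 the locus had a log2 fold change of 1.37 and was not called. The call was also lost without sham 2 (2.18) or sham 3 (2.35). The other loci in microRNA rows were not called.

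Some loci were at high counts in some libraries and at or near 0 in the rest. With 3 counts or fewer in at least 1 library and over 30 in each of the rest, 160 loci were of this kind. Of these, 63 were low in 1 library, 32 in 2, 36 in 3, 26 in 4 and 3 in 5. Among the 36 low in 3 libraries, 2 were low in exactly the CCI group and 3 in exactly the sham group. In most of the 36 the low libraries thus did not match a group. The 2 were chr4:139724623-139725261 and chr3:167632782-167633153, given above among the largest decreases. The 3 were chr1:38517107-38519070 and chr17:14121552-14123300, which passed the adjusted threshold, and chr13:83275961-83276361. Whether these patterns follow the injury or only the libraries was not tested. Each library was low at 51 to 76 of the 160, with most in sham 2.

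Another row was overlapped by 61 of these 160 loci (38.1%) and by 1688 of all 6519 (25.9%), a difference that was not tested. The 4 with the widest range all had a row on the opposite strand. At chr7:118150630-118156288 the counts were 11411, 0 and 20308 in CCI and 23022, 21471 and 0 in sham. A row of Rbfox2, a neuronal splicing factor gene, covers the same bases on the other strand and had 7252, 21397 and 20308 in CCI and 23022, 21477 and 14893 in sham. In CCI 3 and sham 1 the pair had the same count.

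At chr2:79268990-79314731 the minus-strand locus had 9576, 8504 and 9017 counts in CCI and 0, 0 and 9185 in sham. The plus-strand row of identical span had 9579, 0 and 9019 in CCI and 11776, 9797 and 9183 in sham. Every library that was at 0 in 1 of them held 8504 counts or more in the other. The locus chr6:30631057-30631849 had 16704, 0 and 0 in CCI and 589, 0 and 0 in sham under a 5_8S_rRNA row, and chr2:221706794-221746585 had 0, 0 and 14586 in CCI and 14309, 0 and 767 in sham under the Mir137 row. None of the 4 was called.

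Loci sharing at least 95% of their span with another row, and the row with them, lay at 95 distinct spans. Loci on both strands of an identical span count as 1 here. At 83 of the 95 the other row lay on the opposite strand. At 27 of the 95 spans the counts of both rows agreed within 1% in at least 1 library. A pair of unnamed rows was counted from each of its sides in the library values that follow. The counts agreed in 159 of 592 library values where both rows were above 3. In 76 values 1 row was at 3 counts or fewer while the other was not. For these loci the strand, and with it the count, is uncertain. Setting aside the 1688 of the 6519 loci (25.9%) that overlap another row, 135 were called higher and 98 lower. All 6519 gave 177 higher (2.72%) and 129 lower (1.98%), and of all tested rows 2.57% were higher and 1.26% lower.

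**Figure D5:**
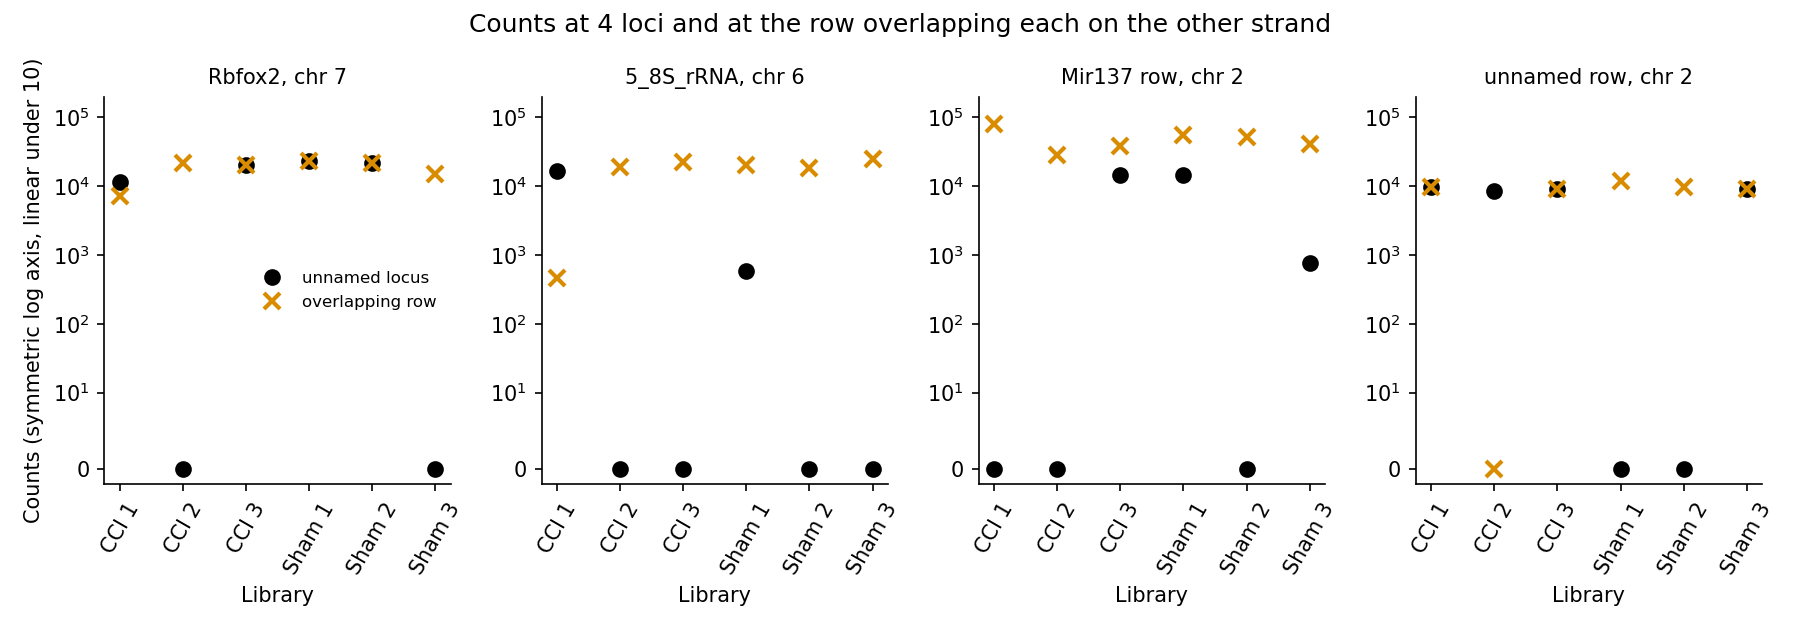
Counts in the 6 libraries (symmetric log axis, linear under 10) at the 4 loci with the widest range (black circles) and at the row overlapping each on the other strand (orange crosses). At the Rbfox2 locus and at the unnamed pair on chromosome 2 the symbols coincide in several libraries, and a black circle at 0 stands under an orange cross of 9797 counts or more.

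The libraries held 75423546 to 87615743 counts, and a floor of 3 counts corresponded to 0.0342 to 0.0394 CPM. The log2 CPM of all tested rows correlated at 0.950 to 0.956 within groups and 0.947 to 0.953 between them. Sensory neuron, satellite glia and Schwann cell markers were present in every library, and 9 of 14 macrophage markers and 19 of 19 tested nerve injury genes were called higher in CCI, against 2.57% of all rows. Of 9 tested skeletal muscle markers 5 were called lower in CCI, where 1.26% of all rows were, and sham 1 was the library highest in them. No sensory neuron, endothelial, satellite glia or Schwann cell marker was called. The injury genes and markers were listed with earlier results of these data known.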

How the data were processed

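Ribosome-depleted total RNA of the DRG of 6 rats, 3 per group, was sequenced in paired ends after dUTP marking of the second strand. Per the labels and methods, the authors aligned reads with HISAT2 2.0 to a rat genome they call V101 and assembled transcripts with StringTie 1.3.0. Whether counting used strand is not given in the sources used here. The deposited counts are whole reads per row and library, without normalization. The deposited FPKM values were made by the authors from those counts, and rows with 0 counts are listed at 0.0001.

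Rows that reached 0.5 FPKM on average were fitted together in edgeR 4.0.16 (R 4.3.3) with TMM factors and the quasi-likelihood test, CCI against sham, and p-values were adjusted by Benjamini-Hochberg over all 26663 rows. CPM use the TMM-scaled library sizes, except the sums over marker lists, which use the total count. The assembled length was taken from the ratio of counts to FPKM, scaled so that loci without strand equal their span. Tables were made with Python 3.11.15 and pandas 2.3.3. The fit was tested on simulated data.

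Alternatives were DESeq2 1.42.0, RLE factors, a limit of 1 FPKM, no limit, limma 3.58.1 on log2(FPKM + 0.1) and log2(FPKM + 1), a replicate block and each library left out. Same-numbered CCI and sham libraries did not deviate together (correlations of -0.01, -0.02 and -0.05), so the numbers were not taken as pairs.

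The loci described were those with an adjusted p under 0.05, the 10 largest increases and decreases with separate groups, the 5 highest in FPKM and in CPM, the 3 longest and 3 farthest, called loci within 10 kb of a listed gene, and the 4 with the widest count range between libraries. Loci in named intervals, in head-to-head position, in microRNA rows and beside a row called in the same way were added after their values were seen. The members and lists were chosen with earlier results of these data known. Promoter and microRNA sequences are RefSeq's, in GRCr8. The methods give 1 rat per library, while the labels mention a pooled sample, and p-values measure the spread between these libraries. Counting floors cover counting error only.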

Additional observations from a re-analysis of the deposited data

How the results depend on the processing

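The 177 higher and 129 lower calls kept within 1.5 times of their number under the alternatives tried, except that limma on log2(FPKM + 1) gave 58 lower. Leaving out 1 library at a time gave 154 to 208 higher and 113 to 149 lower. The 4 loci higher after adjustment became 55 with DESeq2, 1 with a limit of 1 FPKM, 0 with limma on log2(FPKM + 0.1), 1 with limma on log2(FPKM + 1), and 0 to 7 when a library was left out, with 7 without CCI 1, 0 without CCI 2 and 2 without sham 1. The 0 loci lower after adjustment became 54 with DESeq2, 1 with each of the limit of 1 FPKM and both limma fits, and 0 to 6 when a library was left out, with 6 without CCI 1 and 2 without sham 2. With the replicate block the counts were 156 higher and 110 lower, and 0 in either direction after adjustment. A pair of alternatives was added after seeing the data: loci that overlap no other row gave 2 higher after adjustment, and so did leaving out the loci between Xcl1 and Tbx19. Of those 12 loci, 12 were called under every alternative that tested them all, and the limit of 1 FPKM left 3 to test and called 3. The median distance of 11729 bp became 30410 bp to protein-coding rows, 18263 bp to rows of at least 0.5 FPKM and 35150 bp to rows of the same strand. The 14 neighbours called in the same way became 14 within 5 kb and 17 within 50 kb. Of the 54 called loci described, 29 kept their call under every alternative that tested them, and 0 changed direction. The cause of these changes was not tested. Where every library of a group had 3 counts or fewer, depth allows only a lower bound for the fold.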

Other observations

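A stretch of chromosome 10 before Ccl2, which encodes a chemokine that attracts monocytes, held 26 unnamed loci after Mir6327. Their median log2 fold change was -0.41, and 25 of the 26 were below 0, as were 47.8% of all unnamed loci. Of the 26, 2 were called lower and 0 higher, where 1.26% of all tested rows were lower. Whether these adjacent loci belong to a single transcript was not tested. The locus chr10:69150357-69152711 had 215, 228 and 192 counts in CCI and 422, 225 and 406 in sham, and its call held only when sham 2 or no library was left out. The Ccl2 row itself had 2000, 1832 and 1566 counts in CCI and 970, 719 and 634 in sham, a log2 fold change of 1.29 (SE 0.15). The stretch was picked out after its values were seen.

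Other large intervals showed little difference between groups. The 42 loci between AABR07057237 and AABR07057247 on chromosome 7 had a median log2 fold change of -0.04 and 0 calls by edgeR at an unadjusted p under 0.05 with the fold limit. The 41 loci between 7SK and SNORA70 on chromosome 15 had a median of -0.12 and 1 call.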
